A study of Mus musculus with 12 samples.

Results

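The comparison described here is between RAW264.7 cells given an siRNA against Synbindin and the same cells given a control siRNA, both collected after 4 h with LPS at 100 ng/ml, across all genes of the deposited expression table. It uses 6 of the 12 libraries of the series, 3 per siRNA, chosen by their labels alone. RAW264.7 is a mouse macrophage-like cell line, and all libraries come from that line at passages 3 to 5. The other 6 libraries hold the same siRNAs with LPS for 0 h (without LPS), 3 per siRNA, and serve here for the estimate of the spread and for the difference between times. An siRNA lowers the transcript it targets without removing the gene, and the labels give no rescue or further siRNA. The labels number the replicates without naming separate transfections, and the p-values therefore cover only the spread between libraries, part of which may be technical. Below, "silenced" means Synbindin siRNA, "control" means control siRNA, and libraries are with LPS unless stated otherwise.

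Synbindin, encoded by Trappc4, is a core subunit of the TRAPP complexes, which tether vesicles and activate Rab GTPases on the path between the endoplasmic reticulum and the Golgi. It has also been described as a scaffold that brings the kinases MEK and ERK to the Golgi. LPS, a component of the outer membrane of Gram-negative bacteria, is handed by CD14 to the receptor pair of TLR4 and MD-2. TLR4 signals through the adaptors MyD88 and TRIF to NF-kB, MAP kinases and interferon regulatory factors, and macrophages answer within hours with cytokines, chemokines, prostaglandin and nitric oxide enzymes and with inhibitors that end the response.

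Levels are the authors' deposited FPKM, that is, fragments counted per kilobase of transcript and adjusted for the number of fragments mapped in the library. Differences come from limma on log2(FPKM + 1), as silenced minus control with the standard error (SE), and a gene was called at an adjusted p under 0.05 over all 13078 genes tested. Fold changes on this scale understate the change of genes with low FPKM. Depth, estimated roughly from the smallest values, was 10.1 to 12.9 M (mega) fragments in the control libraries and 13.5 to 17.6 M in the silenced libraries, so every silenced library was deeper than every control library. The mitochondrial share of FPKM was 12.2% to 13.1% in control and 12.8% to 13.8% in silenced libraries. Of 12 macrophage markers 11 were tested, and Spi1, Cd68, Csf1r and Cd14 were above 100 FPKM in all 6 libraries, whereas Mertk was at or near 0. Summed FPKM of the marker lists of other cells stayed at 0 to 0.0329 for T and NK cells, 0 to 0.025 for mast cells, 0.00515 to 0.237 for fibroblasts and 0 for epithelial cells. The B cell list summed to 16.6 to 19.8 FPKM, nearly all of it Ighm, with Ms4a1 and Cd79b at 0. A bulk value cannot tell fewer cells that express a gene from less RNA per cell.

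Across all genes, 94 of 13078 were called (0.719%), 41 higher in silenced cells (0.314%) and 53 lower (0.405%). Among the genes that rose were the cytokine genes Csf2 and Tnf, the chemokine gene Cxcl2, both lysozyme genes and the receptor gene Fcgr1. Among those that fell were the NADPH oxidase gene Nox1, the osteoclast genes Ocstamp and Acp5, and Gpr183, which encodes a receptor for oxysterols. Rises ranged from 0.37 to 2.19 on the log2 scale (median 0.73) and falls from -1.41 to -0.34 (median -0.55), and 9 rises and 4 falls were of at least 1 in size. In all 94 called genes the 3 silenced libraries lay entirely above or entirely below the 3 control libraries, which also held for 18.9% of all genes tested. The median difference over all genes was -0.03, and 44.6% of genes had a positive difference. The count of calls rests on the spread estimated over 12 libraries and falls to 0 with the 6 compared libraries alone (1622 genes at an unadjusted p under 0.05) and to 18 with estimated depth as a covariate. The higher share of the calls, 43.6%, was 62.4% with median-ratio scaling and 73.7% with quantile normalization.

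**Figure D1:**
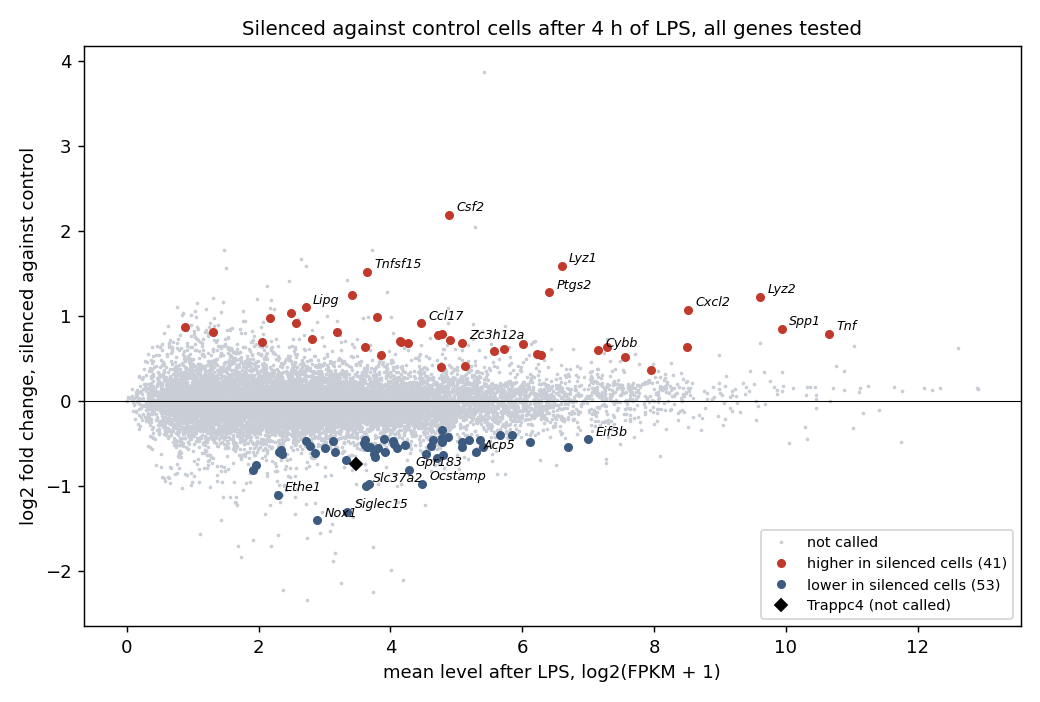
Each point is 1 of the 13078 genes tested, with log2(mean FPKM + 1) over the 6 libraries with LPS on the x axis and the log2 difference, silenced minus control, on the y axis. The 41 genes called higher are red, the 53 called lower are blue, and the black diamond is Trappc4 at -0.74.

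Trappc4, the target of the siRNA (ENSMUSG00000032112, GRCm38 chromosome 9, 44403698 to 44407600, minus strand, 7 annotated transcripts), had 13.8, 15.7 and 9.45 FPKM in the control libraries and 5.86, 7.71 and 8.26 FPKM in the silenced libraries. All silenced libraries were below all control libraries, and the narrowest gap was that between control replicate 3 and silenced replicate 3. The silenced mean was 56.1% of the control mean, a log2 difference of -0.74 ± 0.19 (SE, 95% interval -1.17 to -0.32). After adjustment over the 13078 genes this was not past the threshold (adjusted p = 0.120). An exact permutation test of the 6 values gave p = 0.1, and no smaller p is possible with 3 libraries per group. The other TRAPP subunits had no call: 0 of 14 tested members of the list passed in limma, Trappc4 was the 1 member at an unadjusted p under 0.05, 9 had a positive difference and the median was 0.06. For Trappc1, another subunit, the means were 14.2 ± 1.26 FPKM (control) and 16.0 ± 1.52 FPKM (silenced) (SD, n = 3).

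The start-site regions of 7 of the called genes are shown because they belong to the products the results turn on: a growth factor, TNF, a neutrophil attractant and the inducible cyclooxygenase, which rose, an NADPH oxidase that rose and one that fell, and a transcription factor that fell. Each is the 200 bases just before the RefSeq start of the gene in GRCm38.p6, 5′ to 3′ on the gene's strand, in lower case with every match to a searched motif in capitals.
Csf2, chr11:54249900-54250099, minus strand: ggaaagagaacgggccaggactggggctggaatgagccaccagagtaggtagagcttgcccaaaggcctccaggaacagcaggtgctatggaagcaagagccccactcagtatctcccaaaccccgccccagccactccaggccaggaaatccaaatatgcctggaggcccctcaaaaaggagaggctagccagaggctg
Tnf, chr17:35202008-35202207, minus strand: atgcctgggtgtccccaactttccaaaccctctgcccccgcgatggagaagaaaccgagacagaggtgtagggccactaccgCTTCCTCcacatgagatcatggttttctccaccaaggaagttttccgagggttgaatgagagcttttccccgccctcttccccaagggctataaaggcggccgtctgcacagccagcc
Cxcl2, chr5:90903699-90903898, plus strand: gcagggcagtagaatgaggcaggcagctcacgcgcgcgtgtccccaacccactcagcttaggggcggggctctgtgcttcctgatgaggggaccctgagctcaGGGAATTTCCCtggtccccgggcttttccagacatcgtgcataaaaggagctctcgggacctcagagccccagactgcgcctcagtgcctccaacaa
Ptgs2, chr1:150099831-150100030, plus strand: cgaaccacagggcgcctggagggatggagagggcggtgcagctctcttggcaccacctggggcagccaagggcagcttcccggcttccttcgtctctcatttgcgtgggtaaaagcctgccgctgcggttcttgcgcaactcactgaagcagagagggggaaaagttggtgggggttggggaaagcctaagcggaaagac
Cybb, chrX:9469325-9469524, minus strand: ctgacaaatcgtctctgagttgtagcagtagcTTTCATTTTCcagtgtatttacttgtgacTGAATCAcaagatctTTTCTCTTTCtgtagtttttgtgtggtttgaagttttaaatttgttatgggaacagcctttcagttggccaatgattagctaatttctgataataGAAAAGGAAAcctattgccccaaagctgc
Nox1, chrX:134111855-134112054, minus strand: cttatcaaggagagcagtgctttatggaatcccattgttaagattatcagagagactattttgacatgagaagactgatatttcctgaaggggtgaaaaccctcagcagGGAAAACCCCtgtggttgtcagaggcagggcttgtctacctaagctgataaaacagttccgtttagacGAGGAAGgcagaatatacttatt
Srf, chr17:46556163-46556362, minus strand: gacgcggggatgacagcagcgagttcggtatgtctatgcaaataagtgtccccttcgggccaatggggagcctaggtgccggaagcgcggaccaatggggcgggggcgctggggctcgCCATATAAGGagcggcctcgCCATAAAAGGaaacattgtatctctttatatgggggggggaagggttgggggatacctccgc

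The motifs searched, on both strands of the 250 bases before each start, were the NF-kB consensus, the CArG consensus bound by SRF, AP-1 (TGANTCA), CRE (TGACGTCA), GAS (TTCNNNGAA), the ISRE core (GAAA, any 2 bases, GAAA) and PU.1 (GAGGAAG). RefSeq windows matched 26 of the 41 genes that rose and 45 of the 53 that fell. Cxcl2 holds a pair of overlapping NF-kB matches from -97 to -87 relative to its start. Nox1 holds one at -91 to -82 and a PU.1 match at -23 to -17. Cybb holds 3 ISRE core matches, the nearest at -29 to -20, and an AP-1 match at -139 to -133. Srf itself holds a pair of CArG matches, at -82 to -73 and -62 to -53, and the Tnf window holds a PU.1 match at -118 to -112. The Csf2 and Ptgs2 windows hold none of the 7 motifs in these 200 bases. On the minus strand the Csf2 window ends at base 54249900, upstream of the gene's GENCODE M21 start at 54249667. The bases just before that GENCODE start were therefore not searched. Over the 8352 tested genes with a window the NF-kB consensus was found in 5.38%, the ISRE core in 3.46%, the CArG consensus in 1.20% and the PU.1 motif in 12.8%. Over all 32851 windows these shares were 3.90%, 2.98%, 1.47% and 10.6%. In the genes that rose, the NF-kB consensus was in 1 of 26, the ISRE core in 4 of 26 (Cybb, Slamf8, Spp1 and Srgn), the CArG consensus in 0 of 26 and PU.1 in 4 of 26. In the genes that fell, the NF-kB consensus was in 2 of 45 (Inf2 and Nox1), the ISRE core in 0 of 45, the CArG consensus in 4 of 45 (Mknk2, Slc25a23, Srf and Top1) and PU.1, the most frequent, in 10 of 45. AP-1, CRE and GAS were in 2, 0 and 3 of the 26 and in 2, 1 and 2 of the 45, against 5.26%, 3.18% and 7.04% of tested genes and 6.75%, 1.55% and 7.02% of all windows. These matches are letters in a window, with no measure of binding in these libraries, and no test was made of the counts.

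Csf2, Tnfsf15, Tnf and Spp1 were the inflammatory cytokine genes that rose in silenced cells after LPS. In that list, 4 of 25 tested members rose, against 0.314% of all genes, and 0 fell, 24 of 25 had a positive difference, and the median was 0.42. Among TNF superfamily ligands, 3 of 10 rose and 0 fell, with a median of 0.49. The 1 ligand with a negative difference (-0.80) had all silenced below all control libraries and was not called. Among chemokines 2 of 18 rose and 0 fell, with a median of 0.35. Tnf and Tnfsf15 are in both of the first pair of lists, so these counts overlap. All lists were written with earlier results of these data known, so their shares are descriptive only.

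Csf2, which encodes GM-CSF, a growth factor of granulocytes and macrophages, had 9.84, 12.6 and 6.95 FPKM in the control libraries and 58.7, 46.0 and 38.4 FPKM in the silenced libraries. The lowest silenced library lay far above the highest control library. Csf2 rose 4.87-fold in mean FPKM (log2 2.19 ± 0.19, adjusted p = 0.000709). Its deposited value was 0 in each of the 6 untreated libraries, which lowers the pooled estimate of its spread and so its SE and p. With the 6 compared libraries alone and their own filter its SE was 0.22 and its adjusted p was 0.0451.

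Tnfsf15, which encodes TL1A, a ligand of death receptor 3 on T cells, had 4.73, 5.499 and 6.23 FPKM in control and 19.8, 15.3 and 17.7 FPKM in silenced libraries. The groups were far apart and each was tight. Tnfsf15 rose by 1.52 ± 0.12 on the log2 scale (adjusted p = 0.000709).

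Tnf, the cytokine that opens the response to LPS, was the most abundant transcript among these ligands, with 1100.1, 1196 and 1258 FPKM in control and 1982, 2093 and 2054 FPKM in silenced libraries. No silenced library came near a control library. Tnf rose by 0.79 ± 0.08 (adjusted p = 0.00319), or 1.72-fold in mean FPKM. The ligand of CD30, Tnfsf8, had 2.57, 2.10 and 1.88 FPKM against 4.43, 4.17 and 3.75 FPKM (0.69 ± 0.13, adjusted p = 0.0417). Spp1, which encodes the secreted phosphoprotein osteopontin, had 733, 701 and 664 FPKM in control and 1414, 1346 and 1041 FPKM in silenced libraries, with silenced replicate 3 below its fellows. Spp1 rose by 0.84 ± 0.14 (adjusted p = 0.0291), and the predicted gene Gm42793, called beside it (1.03 ± 0.19), shares exon bases with it on the same strand, so fragments may have been split between them.

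**Figure D2:**
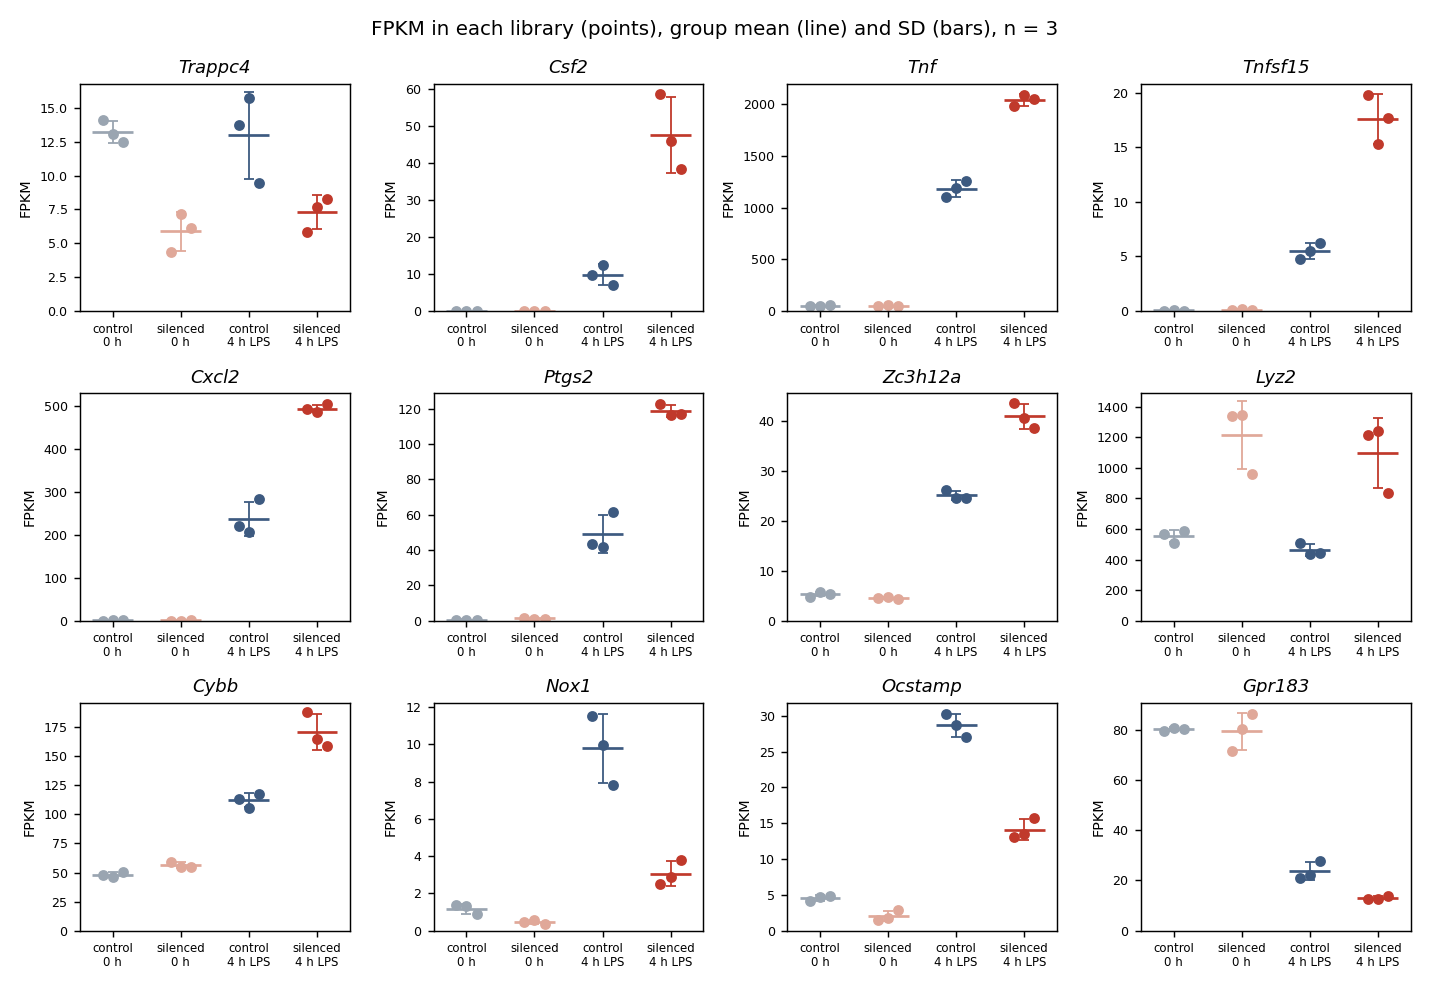
FPKM in each library (points, n = 3 per group) with the group mean (line) and SD (bars), for Trappc4 and 11 called genes with and without LPS. In all 12 panels the silenced and control libraries with LPS do not overlap. Without LPS the silenced libraries stand apart as well in several panels, such as Lyz2 (higher), Trappc4 and Ocstamp (lower). Of these, Lyz2 and Ocstamp were called without LPS and Trappc4 was not.

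The other tested cytokines did not pass, and all of these had a positive difference except Csf1 (-0.17), named here after its value was seen. Il1b, the pyrogen processed by the inflammasome, had 554, 494 and 745 FPKM in control and 816, 851 and 1218 FPKM in silenced libraries (0.68 ± 0.21, adjusted p = 0.184). Ifnb1, the interferon made through TRIF, had 2.10, 2.29 and 1.21 FPKM against 3.04, 3.36 and 4.41 FPKM (0.69 ± 0.17, adjusted p = 0.106). Neither gene's groups overlapped. Il6 had 3.35, 3.80 and 7.17 FPKM against 5.23, 4.91 and 9.22 FPKM (adjusted p = 0.566), and in both groups replicate 3 was the highest. Il10, which restrains the response, had 1.03, 0.986 and 0.640 FPKM against 0.839, 1.799 and 1.63 FPKM (0.35 ± 0.18, adjusted p = 0.465), with overlapping groups.

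The chemokines that rose were Cxcl2 and Ccl17. Cxcl2, which attracts neutrophils, had 219.9, 208 and 283 FPKM in control and 493, 487 and 505 FPKM in silenced libraries. The silenced values were nearly equal, while control replicate 3 stood above the other control libraries. Cxcl2 rose by 1.07 ± 0.16 (adjusted p = 0.0214). Ccl17, the CCR4 ligand, had 16.1, 12.7 and 14.4 FPKM against 30.9, 27.1 and 25.8 FPKM, so its groups were well apart (0.91 ± 0.13, adjusted p = 0.0142). Ccl3 and Ccl4, attractants of monocytes and T cells named here after their values were seen, were the most abundant of the list and narrowly missed the threshold. Ccl3 went from 4927 ± 486 to 7586 ± 513 FPKM (SD, n = 3; 0.62 ± 0.13, adjusted p = 0.0578). Ccl4 was 1626 ± 138 and 2554 ± 304 FPKM (0.65 ± 0.14, adjusted p = 0.0746). Cxcl10, the interferon-induced ligand of CXCR3, had 120.1, 137 and 108 FPKM against 171, 195 and 171 FPKM, without overlap. Its difference of 0.56 ± 0.35 did not pass (adjusted p = 0.556), with an SE that comes from the spread over all 12 libraries.

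In the lists of prostaglandin enzymes, mRNA decay factors and NF-kB inhibitors, 1 gene each rose: Ptgs2, Zc3h12a and Nfkbiz. Over all genes tested 0.314% rose, and these lists too were written with earlier results of these data known. Ptgs2, the inducible cyclooxygenase, had 43.5, 42.0 and 61.5 FPKM in control and 122.6, 116.3 and 116.9 FPKM in silenced libraries. Control replicate 3 was the highest control value and still far below the lowest silenced value. Ptgs2 rose by 1.28 ± 0.16 (adjusted p = 0.00946) and was the 1 called member of 11 tested prostaglandin and leukotriene enzymes (median 0.04). The secreted phospholipase gene Pla2g5, in no list and named after its values were seen, went from 10.8 ± 0.402 to 16.2 ± 0.871 FPKM (0.54 ± 0.10, adjusted p = 0.0472).

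Zc3h12a encodes Regnase-1, an RNase that degrades cytokine transcripts. It had 26.2, 24.7 and 24.5 FPKM in control and 43.5, 40.6 and 38.7 FPKM in silenced libraries, with little spread in either group. Zc3h12a rose by 0.68 ± 0.08 (adjusted p = 0.00724), the 1 call among 9 mRNA decay factors. Nfkbiz encodes IkB-zeta, a nuclear cofactor of NF-kB needed for late LPS genes, and had 21.2, 20.5 and 23.7 FPKM against 38.0, 35.5 and 35.4 FPKM. Its groups were well separated, yet its adjusted p was only 0.0477 (0.71 ± 0.14), and it was called in 2 of the 12 fits that leave out 1 library. It was the 1 call of 16 NF-kB inhibitors and feedback genes (10 positive, median 0.14).

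Of 9 genes for nitric oxide, arginine and itaconate enzymes 0 passed in limma (3 higher at an unadjusted p under 0.05), with a median of 0.25. Nos2, the inducible nitric oxide synthase, had 28.2, 25.4 and 40.6 FPKM in control and 40.7, 43.4 and 58.8 FPKM in silenced libraries (0.60 ± 0.18, adjusted p = 0.176). Control replicate 3 almost touched silenced replicate 1. Ass1, which regenerates arginine, was 0.321 ± 0.339 and 1.60 ± 0.159 FPKM (1.0 ± 0.20, adjusted p = 0.0544), and the mitochondrial arginase Arg2 was 2.12 ± 0.486 and 4.08 ± 0.189 FPKM (adjusted p = 0.137).

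Genes of the receptor and of the kinases that carry the LPS signal had no call. In the list of LPS receptor and proximal signalling genes 0 of 29 passed in limma, 1 was higher and 4 lower at an unadjusted p under 0.05, and the median was 0.01. In the MAP kinase cascade 0 of 26 passed (2 higher and 3 lower at an unadjusted p under 0.05), with a median of -0.02. Among ERK immediate-early and feedback genes 0 of 24 passed (4 higher and 5 lower at an unadjusted p under 0.05), also with a median of -0.02. Cd14, the LPS co-receptor, had 475, 475 and 297 FPKM in control and 698, 658 and 447 FPKM in silenced libraries. Replicate 3 was lowest in both groups, so that the groups overlapped (0.54 ± 0.20, adjusted p = 0.267). Tlr4 had 5.48, 7.84 and 7.34 FPKM against 1.82, 8.92 and 7.14 FPKM, and its SE of 0.74 leaves a 95% interval from -1.98 to 1.26. For Ly96, which encodes MD-2, the difference was 0.16 (95% interval -0.12 to 0.43). For the adaptor gene Myd88 it was 0.05 (-0.15 to 0.26) and for Ticam1, which encodes TRIF, -0.20 (-0.52 to 0.11). The kinase gene Irak1 had -0.26 (-0.51 to -0.01, adjusted p = 0.357) and the ubiquitin ligase gene Traf6 -0.05 (-0.24 to 0.14). For the kinase gene Mapk3 it was -0.21 (-0.43 to 0.01). The ERK phosphatase Dusp6 went from 2.31 ± 0.177 to 3.85 ± 0.288 FPKM, with separate groups, and missed the threshold (0.55 ± 0.13, adjusted p = 0.101).

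Both lysozyme genes and a few receptor genes of macrophages rose in silenced cells. Of 5 tested lysozyme and granule genes 3 rose, against 0.314% of all genes (median 0.61). Lyz1 and Lyz2, alike in sequence, are among these 3 and may not be separate. Of 13 scavenger and pattern lectin receptors 2 rose (9 positive, median 0.17), and of 9 Fc-gamma receptor genes 1 rose (median 0.21). The lists were written with earlier results of these data known, so these shares only describe them. Of the 11 tested macrophage markers 2 rose, Lyz2 and Fcgr1, with 7 positive and a median of 0.30. The 9 neutrophil markers summed to 1.06 to 1.25 FPKM in control and 2.11 to 2.85 FPKM in silenced libraries. Most of that sum was Csf3r, the G-CSF receptor, and 6 of the 9 were at 0 in all 6 libraries, among them the defining granule genes Mpo, Elane, S100a8 and S100a9. The part of this sum in the rises was not tested.

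Lyz2, the macrophage lysozyme, which cleaves bacterial cell walls, had 509.9, 435 and 444 FPKM in control and 1217, 1242 and 834 FPKM in silenced libraries. Its copy Lyz1 had 51.2, 44.4 and 44.6 FPKM against 171, 163 and 103 FPKM. In both genes silenced replicate 3 lay well below the other silenced libraries, and no groups overlapped. Lyz1 rose by 1.59 ± 0.17 (adjusted p = 0.00319) and Lyz2 by 1.22 ± 0.17 (adjusted p = 0.0121). Their transcripts are 96.0% identical over 1262 aligned bases, so the split of fragments between them is uncertain. Srgn, the proteoglycan that packs granules, had 147, 139 and 175 FPKM against 204, 222 and 235 FPKM (0.52 ± 0.10, adjusted p = 0.0477).

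The high-affinity receptor for IgG, Fcgr1, had 18.8, 20.4 and 18.6 FPKM in control and 31.8, 38.0 and 32.0 FPKM in silenced libraries, without overlap (0.78 ± 0.15, adjusted p = 0.0417). Msr1 and Cd36, scavenger receptors that take up modified lipoproteins, both rose. Msr1 had 40.9, 38.7 and 43.2 FPKM against 64.3, 65.9 and 58.6 FPKM (0.61 ± 0.09, adjusted p = 0.0252), and Cd36 had 69.5, 57.9 and 60.6 FPKM against 101, 88.2 and 84.8 FPKM (0.54 ± 0.09, adjusted p = 0.0313). The groups overlapped in neither gene, and only those of Msr1 were compact beside the distance between them. Lipg, which encodes endothelial lipase, a phospholipase that acts on lipoproteins, was low but clear, with 2.87, 3.51 and 3.14 FPKM against 7.80, 7.87 and 8.11 FPKM. It rose by 1.10 ± 0.11 (adjusted p = 0.00227). With Cd36, Lipg made up the 2 calls among 14 lipid handling genes (8 positive, 6 negative, median 0.12), against 0.314% of all genes.

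The receptor genes Il1rl1, Cd200r1 and Hcar2 were also among the rises. Il1rl1, the IL-33 receptor ST2, had 13.2, 13.3 and 14.9 FPKM in control and 23.4, 22.3 and 22.5 FPKM in silenced libraries (0.68 ± 0.11, adjusted p = 0.0291). Cd200r1, an inhibitory receptor for CD200, had 12.34, 12.01 and 13.19 FPKM against 20.8, 22.3 and 19.7 FPKM (0.70 ± 0.12, adjusted p = 0.0291). Hcar2, the receptor for niacin and ketone bodies, had 17.5, 16.0 and 22.2 FPKM against 34.8, 30.0 and 32.3 FPKM (0.78 ± 0.14, adjusted p = 0.0318). In all 3 genes the silenced values were above the whole control range. Smaller rises came from the leukocyte surface antigen Cd52 (121.2 ± 5.55 to 189 ± 11.7 FPKM), the activating receptor Cd300c2 (8.58 ± 0.413 to 13.9 ± 1.05 FPKM) and the myeloid schlafen gene Slfn4 (284 ± 40.8 to 438 ± 31.3 FPKM). The adaptor genes Stap1 and Themis2, the tetraspanin Cd9, the receptor Calcrl and the SLAM family member Slamf8, named after their values were seen, rose by 0.55, 0.41, 0.37, 0.59 and 0.81. Slamf8 was low, with means of 0.796 FPKM (control) and 2.16 FPKM (silenced) and an adjusted p of 0.0477 in limma. It was called in 0 of the 12 fits that leave out 1 library, and Themis2 in 1. The chromatin remodelling subunit Bcl7b had 5.57, 5.65 and 5.62 FPKM against 10.99, 10.04 and 10.87 FPKM (0.81 ± 0.10, adjusted p = 0.00946). Other rises were those of the guanine exchange factor Arhgef3 (0.69), the protease inhibitor Spink5 (0.99), the repressor Bcl6b (0.97), the actin-binding Xirp1 (0.92) and the small nucleolar RNA Snord104 (1.24). Bcl6b and Xirp1 were low, with control means of 2.01 and 3.15 FPKM, and each was called in 1 of those 12 fits.

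NADPH oxidases make superoxide from NADPH, and 2 catalytic subunits moved in opposite directions. Cybb, the phagocyte subunit gp91phox, had 113.5, 105.8 and 117.8 FPKM in control and 188, 165 and 159 FPKM in silenced libraries, and rose by 0.60 ± 0.08 (adjusted p = 0.0121). Nox1, the catalytic subunit best known from colon epithelium, had 11.5, 9.99 and 7.84 FPKM against 2.51, 2.88 and 3.79 FPKM. Its lowest control library was well above its highest silenced library. Nox1 fell by 1.41 ± 0.16 (adjusted p = 0.00561), the lowest difference among all called genes. It shares exon bases with Cstf2 on the opposite strand, as 21 called genes do with some annotated gene there, and the strand setting of the authors' counting is not given in the sources used here. The other 6 tested subunits had no call, and the list's median was 0.12.

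Osteoclasts arise when macrophage precursors fuse. In silenced cells 3 of 11 tested osteoclast markers fell, against 0.405% of all genes, while 0 rose (4 positive, 7 negative, median -0.15). This list too was written with earlier results of these data known, so the share is descriptive only. Ocstamp, a membrane protein needed for that fusion, had 30.3, 28.7 and 27.0 FPKM in control and 13.1, 13.5 and 15.8 FPKM in silenced libraries. The silenced values were close to each other and clearly below the control values. Ocstamp fell by 0.98 ± 0.15 (adjusted p = 0.0214). Acp5, the tartrate-resistant acid phosphatase, had 53.4, 46.0 and 40.5 FPKM against 28.0, 31.2 and 31.0 FPKM (-0.61 ± 0.10, adjusted p = 0.0307). Siglec15, a sialic acid receptor of osteoclast precursors, had 18.46, 11.46 and 10.46 FPKM against 4.50, 3.31 and 6.77 FPKM (-1.30 ± 0.26, adjusted p = 0.0477), with control replicate 1 above its fellows. Nfatc1, the transcription factor that drives osteoclast formation, named after its values were seen, was 62.2 ± 15.3 and 34.4 ± 10.9 FPKM and did not pass (adjusted p = 0.151).

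Single genes with other roles also fell. Gpr183, the receptor for oxysterols that guides immune cells, had 21.1, 22.3 and 27.8 FPKM in control and 12.4, 12.74 and 13.97 FPKM in silenced libraries, without overlap (-0.81 ± 0.10, adjusted p = 0.0101). It was the 1 call of 15 purinergic and chemotactic receptors, while 0.405% of all genes were called lower. Ethe1, a mitochondrial enzyme of sulfide breakdown, had 5.51, 7.19 and 4.37 FPKM against 2.68, 1.82 and 1.74 FPKM (-1.11 ± 0.20, adjusted p = 0.0369). Slc37a2, a sugar-phosphate antiporter of macrophages, had 18.9, 11.6 and 15.8 FPKM against 6.34, 9.23 and 6.01 FPKM (-1.0 ± 0.18, adjusted p = 0.0369), and silenced replicate 2 came nearest the control values. Deptor, an inhibitor of the kinase mTOR, and Gatsl2, a homologue of the arginine sensor of mTORC1, both named after their values were seen, fell from 3.87 ± 0.668 to 1.88 ± 0.421 FPKM and from 3.84 ± 1.08 to 1.72 ± 0.361 FPKM. Deptor was called in 0 and Gatsl2 in 1 of the 12 fits that leave out 1 library. The host gene Snhg3 fell by 0.98 ± 0.17 (adjusted p = 0.0307), but it overlaps Rcc1 and Snora73a on its own strand, so its fragments may belong to either.

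Further falls are given by known role, a grouping made after their values were seen and not tested. Pld4, a lysosomal nuclease of single-stranded nucleic acids, had 34.7, 33.1 and 30.5 FPKM in control and 21.5, 20.4 and 20.2 FPKM in silenced libraries (-0.64 ± 0.11, adjusted p = 0.0307). It was the 1 call of 39 lysosome and autophagy genes, whose median was -0.04, while 0.405% of all genes were called lower. Sidt2, a lysosomal membrane protein that takes up RNA, had 13.86, 13.98 and 15.07 FPKM against 9.45, 9.43 and 9.69 FPKM (-0.54 ± 0.09, adjusted p = 0.0291). The lysosomal DNase gene Dnase2a and the endolysosomal cation channel Tpcn1 fell by 0.47 and 0.52. Genes of small GTPases, of their regulation and of vesicle sorting also fell. These were Dennd5a, 11.4 ± 1.55 to 6.66 ± 0.45 FPKM, the GTPase Rab31, 39.2 ± 2.57 to 26.6 ± 1.39 FPKM, and the sorting nexin Snx8, 17.3 ± 1.71 to 11.05 ± 1.803 FPKM. Genes that shape actin fell in Baiap2 (-0.66) and the formin Inf2 (-0.52). The gene of the cortical protein Phldb1 fell as well (-0.55). Kinase genes among the falls were Csnk1g2 (-0.63), the atypical MAP kinase Mapk6 (-0.49) and Mknk2 (-0.47), which phosphorylates a translation initiation factor downstream of ERK. Transcription factor genes were Srf (30.7 ± 0.688 to 22.4 ± 1.72 FPKM), Cbfb (-0.49) and Nfic (-0.48). Snx8, Baiap2, Inf2, Mapk6 and Srf were each called in 1 of the 12 fits that leave out 1 library, against 9 for Rab31 and Mknk2.

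Transport between the endoplasmic reticulum and the Golgi, where Synbindin acts, had no call: 0 of 45 genes passed in limma, 1 was higher and 3 lower at an unadjusted p under 0.05, and the median was -0.08. The member with the smallest p was Gosr2, a SNARE of the Golgi, with 38.9 ± 3.60 FPKM in control and 29.1 ± 1.23 FPKM in silenced libraries (-0.40 ± 0.09, adjusted p = 0.0702). In the unfolded protein response 0 of 28 passed (2 higher and 1 lower unadjusted) and the median was 0.00. Its factor Xbp1 was 30.0 ± 10.97 and 51.8 ± 4.07 FPKM, with separate groups and a wide control spread (0.82 ± 0.27, adjusted p = 0.226).

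Several further lists gave no call in limma, and their counts at an unadjusted p under 0.05 follow. Among interferon-stimulated genes 0 of 54 passed (4 higher unadjusted), 45 were positive and the median was 0.15. Their summed FPKM overlapped between groups, at 4686 to 6261 in control and 5150 to 6758 in silenced libraries. Inflammasome genes had 0 of 15 (4 higher unadjusted, 14 positive, median 0.24), and antigen presentation genes 0 of 18 (3 higher, 16 positive, 0.15). Cholesterol synthesis had 0 of 25 (5 higher, median 0.09), glycolysis 0 of 19 (1 higher and 3 lower, -0.02) and G1/S genes 0 of 33 (2 lower, -0.13). In G2/M genes 0 of 35 passed (4 lower unadjusted), only 1 was positive and the median was -0.25. Their summed FPKM overlapped between groups, at 620 to 895 in control and 492 to 763 in silenced libraries. In 2 of these genes all silenced libraries were below all control libraries. The 15 mitochondrially encoded transcripts had 0 calls, 0 also unadjusted, and a median of 0.13, which became 0.01 with quantile normalization.

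**Figure D3:**
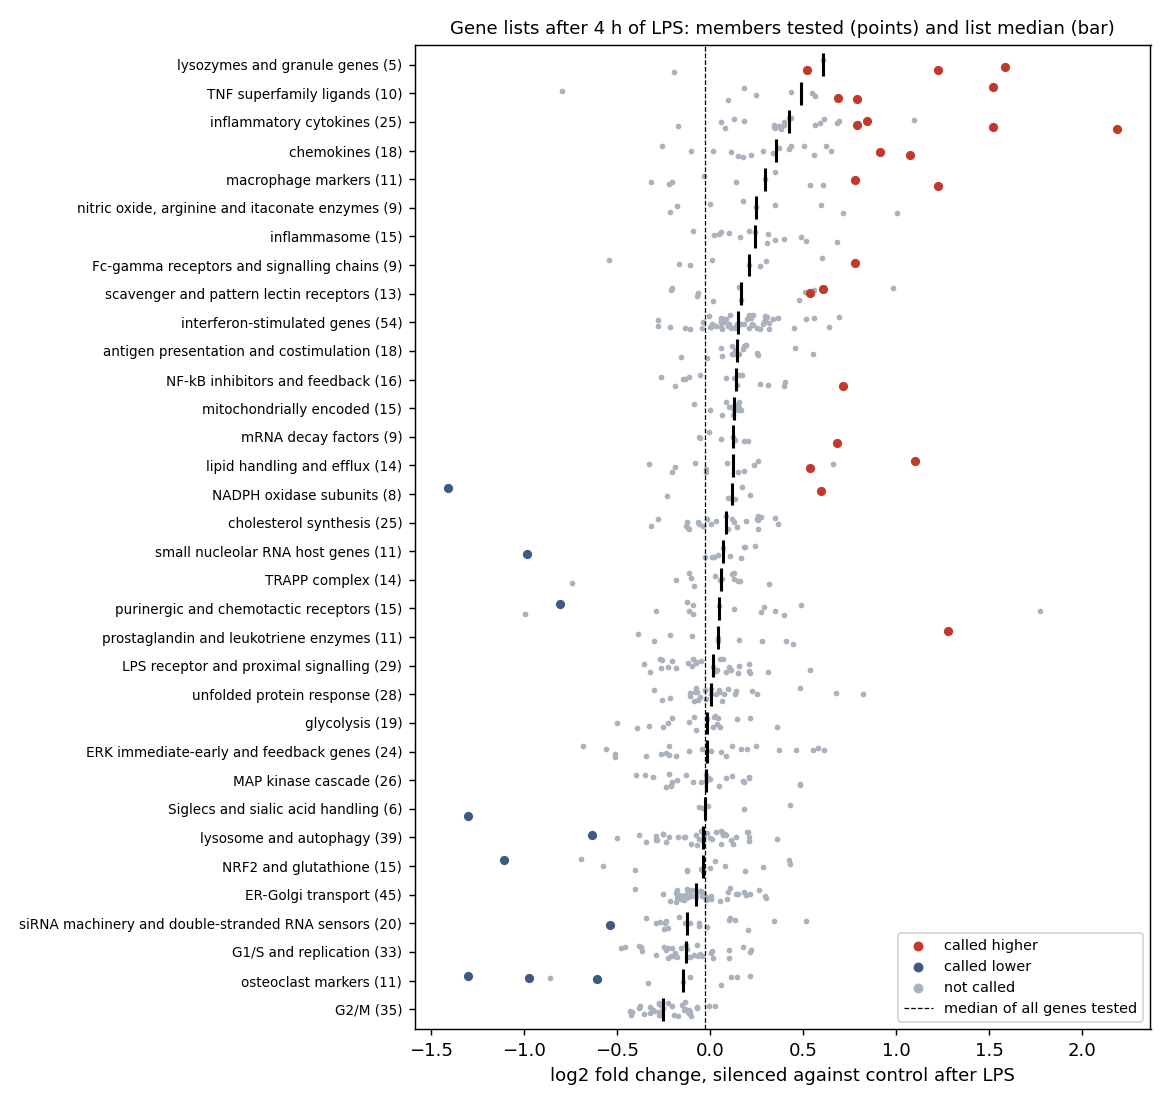
Each row is a gene list with at least 5 tested members. Grey points are the members' log2 differences after LPS, coloured points the called members, the bar the list's median, and the dashed line the median of all genes, -0.03. The medians of cytokines (0.42), TNF superfamily ligands (0.49) and lysozymes (0.61) lie farthest to the right and that of G2/M genes (-0.25) farthest to the left.

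The comparison without LPS, which shares no library with that after LPS, called 28 of the 13078 genes (0.214%). Of the 94 genes called after LPS, 74 had the same sign without LPS, 30 of the 41 that rose and 44 of the 53 that fell. That is 78.7% of the calls, against 51.1% of all 13078 genes tested. Lyz1, Lyz2, Srgn, Gm6166, Ocstamp and Sidt2 were called at both times in the same direction, which is 6.38% of the calls after LPS and 21.4% of those without. For the lysozymes the size was alike at both times: Lyz1 differed by 1.62 without LPS and 1.59 after, and Lyz2 by 1.11 and 1.22. Ocstamp differed by -0.90 and -0.98, although its control mean was 4.53 FPKM without LPS and 28.7 FPKM after. Without LPS, Tnf had means of 50.4 FPKM in control and 48.4 FPKM in silenced libraries, and Cxcl2 0.764 and 0.746 FPKM, so both were nearly equal there. Gpr183 had 80.2 and 79.3 FPKM without LPS and a difference of -0.02, against -0.81 after LPS.

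**Figure D4:**
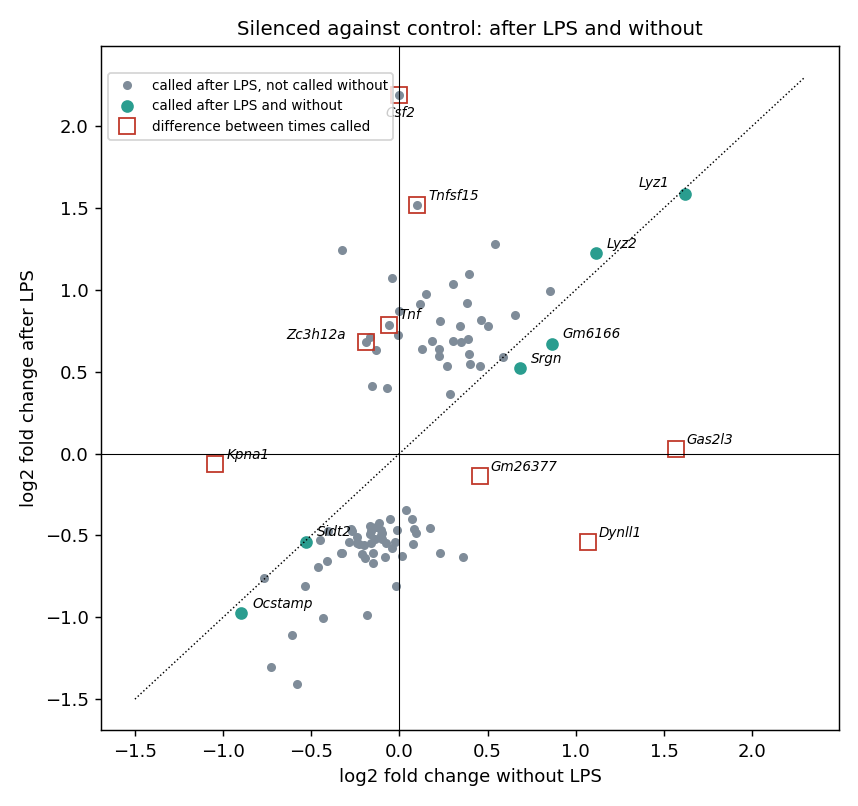
Log2 difference, silenced minus control, without LPS (x axis) and after LPS (y axis) for the 94 genes called after LPS and the genes called for the difference between times. The dotted line marks equal differences. Lyz1 and Ocstamp lie near it, and Csf2, Tnfsf15 and Tnf lie above it at x values near 0.

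The difference between the times was tested for every gene, and 8 passed (0.0612%), of which 4 were also called after LPS. These 4 were Csf2 (2.19 ± 0.26, adjusted p = 0.0161), Tnfsf15 (1.42 ± 0.17, adjusted p = 0.0161), Zc3h12a (0.87 ± 0.12, adjusted p = 0.0271) and Tnf (0.85 ± 0.12, adjusted p = 0.0344). In each, the silenced-minus-control difference was greater after LPS than without. Zc3h12a and Tnf differed by -0.19 and -0.06 without LPS. Csf2 was at 0 FPKM in all 6 untreated libraries, which also lowered its SE here. Tnfsf15 had untreated means of 0.044 FPKM (control) and 0.12 FPKM (silenced). At such levels a difference without LPS could hardly show, so for Csf2 and Tnfsf15 this test largely repeats the difference after LPS. For Cxcl2, Ptgs2 and Nfkbiz the difference between times was 1.12, 0.74 and 0.88 and did not pass (adjusted p = 0.140, 0.300 and 0.184). For Gpr183 and Nox1 it was -0.79 and -0.83 (adjusted p = 0.138 and 0.272). The count of 8 fell to 0 without control replicate 1 or any of silenced replicates 1, 2 and 3, and rose to 20 without control replicate 3.

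How far the calls after LPS rest on single libraries was read from 12 fits that each left out 1 library. With control replicate 1, 2 or 3 left out, 15, 16 or 88 genes were called, and with silenced replicate 1, 2 or 3 left out, 20, 10 or 34. Leaving out an untreated library gave 46, 59 or 63 calls for the control replicates and 53, 55 or 91 for the silenced replicates. Csf2, Tnfsf15, Tnf, Zc3h12a, Lyz1, Lipg, Bcl7b and Nox1 were called in all 12 fits, and 16 genes in at least 9. Among less steady rises were Tnfsf8, called in 1 of these fits, Srgn, Slfn4 and Pla2g5, each in 2, and Fcgr1 and Cd36, each in 3. All 94 genes kept their direction in each of the 12 fits. This was fixed in advance, since their silenced and control libraries with LPS do not overlap.

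**Figure D5:**
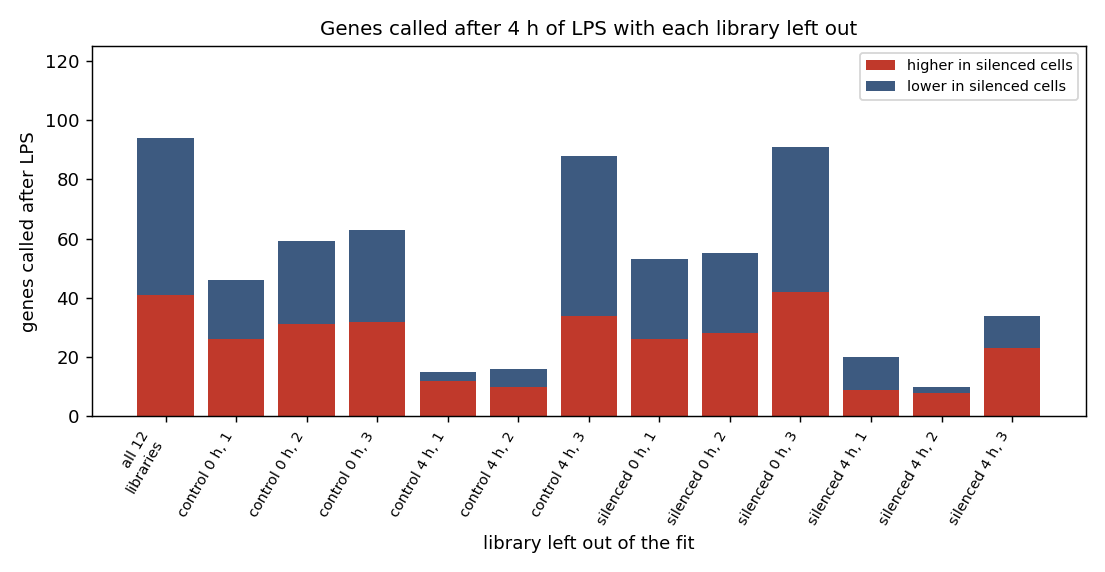
Number of genes called after LPS, higher and lower in silenced cells, with all 12 libraries and with each library left out. The count is 94 with all libraries, 10 without silenced replicate 2 with LPS and 88 without control replicate 3 with LPS.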

How the data were processed

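RNA-seq was made of 12 libraries of RAW264.7 cells, 3 in each of 4 groups. The authors deposited FPKM in 1 table of 53801 gene records by 12 libraries. HISAT2, StringTie and the build GRCm38 are named, without versions or order, in the submitters' processing notes. No source used here gives the annotation release, the strand setting or how multiply matching reads were treated. GENCODE M21 held 53620 of the record IDs and gave coordinates. Calendar dates stood in place of 27 symbols, and these genes were identified by ID. A count test does not apply to FPKM. For depth, low values were set against multiples of the value of 1 fragment, but only 4.64% to 10.2% of them per library were within 1% of a whole multiple, so depths are rough.

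Tested genes had 1 FPKM or more in 3 or more of the 12 libraries. The model was limma 3.58.1 (R 4.3.3) on log2(FPKM + 1), pseudocount 1, with a mean for each group, all 12 libraries and an intensity trend, which left 8 residual degrees of freedom. Tests were 2-sided with Benjamini-Hochberg adjustment over all genes tested. The fit was also run on simulated data with known changes, whose outcome is not reported here and is no measure of the accuracy of these calls. For Trappc4 an exact permutation test, 2-sided, was added.

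The genes and the 40 lists were chosen with earlier results of these data known. Named genes were Trappc4, the 25 highest and 25 lowest called genes (group mean of 5 FPKM or more, no predicted, clone or pseudogene names), from each list the called members (at most 4) or, with no call, the 2 members of smallest p, 16 fixed LPS genes, and genes called for the difference between times. The text says where a name falls outside this rule, and a few genes of the lists are not reported here. Where a symbol of a list had more than 1 record, that with the highest mean was used. Promoter sequences are from RefSeq, build GRCm38.p6.

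Alternatives were a pseudocount of 0.1, no filter, a minimum of 5 FPKM, 3 scalings (common sum, median-ratio, quantile), the replicate number as a block, only the 6 libraries compared, no trend, and each library left out. Estimated depth as a covariate and the 6 libraries with their own filter were added after the data were examined.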

Additional observations from a re-analysis of the deposited data

Results flagged for a closer look

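For 8 genes the silenced-minus-control difference differed between LPS and no LPS by limma's test of the difference itself. Csf2 (2.19 on the log2 scale), Tnfsf15 (1.42), Zc3h12a (0.87) and Tnf (0.85) are described above. Their silenced libraries exceeded their control libraries after LPS, and without LPS their differences were 0.00, 0.10, -0.19 and -0.06. Csf2 and Tnfsf15 were at or near 0 FPKM without LPS.

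The other 4 genes were called without LPS and were not called after it. Kpna1, a nuclear import adaptor, had 13.8, 14.7 and 15.5 FPKM in control and 6.57, 6.67 and 6.54 FPKM in silenced libraries without LPS, and 11.48, 11.39 and 12.96 FPKM against 11.32, 11.4 and 11.38 FPKM after LPS (difference between times 0.98, adjusted p = 0.0161). Without LPS its silenced libraries were far lower, and after LPS they were just below the lowest control library or level with it. Gas2l3, a linker of actin and microtubules, had 8.59, 7.80 and 11.7 FPKM against 29.3, 26.6 and 32.4 FPKM without LPS, and 11.2, 11.73 and 10.46 FPKM against 11.7, 11.4 and 10.9 FPKM after it (-1.54, adjusted p = 0.0161). Dynll1, a dynein light chain, had 19.2, 16.3 and 18.0 FPKM against 39.7, 40.9 and 34.8 FPKM without LPS, and 32.3, 18.6 and 29.6 FPKM against 17.6, 18.1 and 17.2 FPKM after it (-1.61, adjusted p = 0.0388). For both genes the silenced libraries were far higher without LPS, and after LPS their level was close to or below that of the control libraries. The predicted gene Gm26377, whose exon lies on that of Eef1a1 on the same strand, differed by -0.59 (adjusted p = 0.0388), so fragments of the pair cannot be told apart.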

How the results depend on the processing

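The 94 genes called after LPS kept their direction in every alternative that tested them, 2157 values in all, of which 1024 stayed past the threshold. In the fits that only leave out libraries the direction could not have changed, because these genes' libraries with LPS do not overlap. The count of calls (of which higher and lower) was 38 with quantile normalization (10 lower), 50 without the intensity trend (19 lower), 18 with depth as a covariate (13 and 5), and 0 with only the 6 libraries compared. With those 6 libraries and their own filter it was 20 (16 and 4). Rises numbered 27 with a pseudocount of 0.1, and falls 33 without a filter and 32 with median-ratio scaling. Leaving out 1 library gave 10 to 91 calls, 8 to 42 higher and 2 to 54 lower. For the 28 calls without LPS, the counts were 6 with 6 libraries, 10 without the trend and 3 to 41 with 1 library left out. For the difference between times, the count of 8 became 5 with a pseudocount of 0.1, 4 without the trend and 0 to 20 with 1 library left out. The cause of these changes was not tested. Trappc4 stayed lower by 0.60 to 0.94 on the log2 scale over the alternatives and was never called, with adjusted p from 0.0503 to 0.365.

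Deviations from the group means of same-numbered libraries correlated at 0.0176, 0.0420 and 0.189 after LPS and at -0.0274, -0.00312 and 0.129 without it. Only replicate 3 was above 0.1, and at each time only the third libraries correlated best with their own number, so the numbers were not taken to pair the libraries. With the replicate block the counts were 96 after LPS (73 of the 94 among them), 48 without LPS and 10 for the difference between times. Rough depth, 3 libraries per group and a table without counts limit the precision for genes of low FPKM.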

Other observations

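A few genes with large but uncalled differences after LPS, chosen after their values were seen, turned on 1 library or on values that switched between near 0 and a steady level. Cx3cr1, the fractalkine receptor, had 3.27, 2.64 and 2.54 FPKM in control and 54.3, 5.28 and 5.33 FPKM in silenced libraries, so that silenced replicate 1 stood alone (adjusted p = 0.259). Small nuclear RNA genes were high in control replicate 2 alone: Rnu2-10, a U2 gene, had 2.60, 85.3 and 0.247 FPKM in control and 0.694, 0.271 and 1.89 FPKM in silenced libraries (adjusted p = 0.516).

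The Y RNA gene Rny1 was also highest in control replicate 2, with 8.29, 23.4 and 7.35 FPKM against 0.914, 3.73 and 4.01 FPKM (adjusted p = 0.204). Pet117, a factor of cytochrome oxidase assembly, had 10.3, 8.15 and 8.74 FPKM in control libraries, 6.65 FPKM in silenced replicate 3 and less than 0.01 FPKM in the other silenced libraries (adjusted p = 0.358). It was likewise at 0.00684 FPKM in silenced replicate 1 without LPS and between 17.1 and 18.7 FPKM in the other untreated libraries. The long noncoding RNA E130102H24Rik had 2.48, 1.85 and 2.36 FPKM in control libraries and was listed at 0, 0 and 0.278 FPKM in silenced libraries (adjusted p = 0.0746).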
